A study of Homo sapiens with 8 samples.

Results

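The transcripts of 9 secreted growth factors of the EGF family, EGF, TGFA, AREG, EREG, HBEGF, BTC, NRG1, NRG2 and NRG4, were followed after stable knockdown of ErbB2 or of the mucin MUC4. The cells were CAPAN-2, a human pancreatic adenocarcinoma line. Every probe whose accession maps to one of these genes was taken, which gave 16 of the 41000 probes of the array. NRG1 has 4 of them, BTC, EREG, HBEGF and NRG2 have 2 each, and AREG, EGF, NRG4 and TGFA have 1 each. Each of 8 arrays carried 2 RNAs in different dyes. On 4 arrays, 1 ErbB2-KD clone each, stably transfected with a puromycin plasmid encoding an ErbB2 shRNA, was set against a pool of 4 NT clones that carried the empty plasmid. On the other 4 arrays, MUC4-KD clones made by infection with the retroviral pRetroSuper plasmid were set against a pool of 4 Mock clones with the empty retroviral plasmid. All groups shared the parental line, and each carried a vector under drug selection. The drug was puromycin for ErbB2-KD and NT and geneticin for MUC4-KD and Mock. Each ErbB2-KD sample was a named single clone. The study's methods give clones for MUC4-KD too, but the labels of these arrays name none.

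These ligands are made as membrane precursors and released by cleavage at the cell surface, largely by ADAM proteases. EGF, TGF-alpha (TGFA) and amphiregulin (AREG) bind EGFR, whereas epiregulin (EREG), HB-EGF (HBEGF) and betacellulin (BTC) bind both EGFR and ERBB4. The neuregulins bind ERBB3 or ERBB4. ErbB2 itself has no known ligand and signals as the partner of the ligand-bound receptors, and pancreatic carcinoma cells are known to make several EGFR ligands for their own use.

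The targeted genes were examined first. On its brighter probe (A_23_P89249), ERBB2 had log2 ratios of ErbB2-KD over NT of -0.58, -0.35, -0.33 and -0.40 on arrays 1 to 4, lower on 4 of 4 arrays with a mean of -0.41 and an adjusted p of 0.138, while its other probe had a mean of 0.041. MUC4 went against its label. On probe A_24_P208825 the RNA labelled MUC4-KD held 1.71, 2.34, 2.21 and 2.05 log2 units more MUC4 than the RNA labelled Mock (adjusted p = 0.00104), on a second of its 4 probes 1.43 units more (adjusted p = 0.0119), and on the remaining probes the means were 0.20 and 0.34. The direction of the study's own MUC4-KD list is also opposite to that of the labels, for BTC among others. All MUC4-KD values here run from the RNA labelled MUC4-KD to the RNA labelled Mock. The RNA labelled Mock, described as 1 pool, varied more between arrays (median SD of the log2 level over 25835 probes 0.26) than the RNA labelled MUC4-KD (0.156). In the ErbB2 experiment the NT pool varied less (0.185) than the ErbB2-KD clones (0.368). On MUC4-KD arrays 1 and 3, which had opposite dyes and the same slide, the RNA labelled Mock correlated at r = 0.996 over these probes. The RNA labelled MUC4-KD had r = 0.991 on them. On ErbB2-KD arrays 1 and 3, which held separate clones, r was 0.995 for the NT pool and 0.97 for the clones. Between any arrays of the MUC4-KD experiment, r ran from 0.96 to 0.996 for the RNA labelled Mock. For the RNA labelled MUC4-KD it ran from 0.984 to 0.997. The channel labelled Mock is described as 1 pool, so as labelled its r does not show which clones were used. Whether MUC4-KD arrays 1 and 3 hold 1 sample rather than separate clones was not tested. If they do, n = 4 counts it again, and results for the ligands with them averaged are given where they change a call. Whether the channels of the MUC4-KD arrays are exchanged in the labels was not tested. In each channel, 56.7% to 74.2% of probes were well above background and no spot was saturated. All 9 markers of duct epithelium (among them KRT7, KRT19 and EPCAM) were well above background in all 16 channels. None of the 3 acinar, 5 fibroblast or 3 endothelial markers with a probe was so in all 16. Those well above background in no channel were 1 acinar, 3 fibroblast and 0 endothelial markers. Of 4 endocrine and 4 leukocyte markers, CHGA and CD68 were well above background in all 16 channels.

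EPGN (epigen, a further EGFR ligand), EREG, AREG and BTC are successive protein-coding genes on chromosome 4 in the RefSeq annotation of GRCh38.p14, and EREG and AREG shared a pattern over the MUC4-KD arrays. The 250 bases before the start of the 3 members among them are therefore shown, 5′ to 3′, as RefSeq gives them for GRCh38.p14. Both strands were searched for the AP-1 motif (TGACTCA or TGAGTCA), the cyclic AMP response element (CRE, TGACGTCA) and the TATA box (TATAAA), which do not overlap here, and matches are in capitals.
EREG, chr4:74364895-74365144, plus strand: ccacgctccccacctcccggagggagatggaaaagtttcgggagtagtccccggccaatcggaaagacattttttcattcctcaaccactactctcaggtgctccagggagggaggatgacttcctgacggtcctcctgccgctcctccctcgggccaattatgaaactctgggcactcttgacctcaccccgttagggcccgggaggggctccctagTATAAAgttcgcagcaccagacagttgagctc
AREG, chr4:74444886-74445135, plus strand: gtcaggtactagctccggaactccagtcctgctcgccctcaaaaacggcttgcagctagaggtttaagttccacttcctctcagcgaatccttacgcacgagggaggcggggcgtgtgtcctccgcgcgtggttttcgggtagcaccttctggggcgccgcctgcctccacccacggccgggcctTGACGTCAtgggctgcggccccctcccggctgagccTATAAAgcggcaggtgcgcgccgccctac
BTC, chr4:74794524-74794773, minus strand: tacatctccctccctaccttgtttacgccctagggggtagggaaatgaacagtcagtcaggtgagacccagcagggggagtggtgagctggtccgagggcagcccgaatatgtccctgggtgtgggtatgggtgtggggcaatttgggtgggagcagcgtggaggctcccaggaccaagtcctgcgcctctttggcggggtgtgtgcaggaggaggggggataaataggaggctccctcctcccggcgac
AREG held a CRE that begins 65 bases before the start and a TATA box that begins 29 bases before it. EREG held a TATA box that begins 32 bases before the start, and BTC held none of these letters. Of 35116 RefSeq promoters of this length, 1.65% held the CRE, 10.7% the TATA box and 4.20% the AP-1 motif. Of the other ligands with a promoter listed, EGF held an AP-1 motif, EPGN and NRG4 a TATA box, and HBEGF, TGFA and NRG2 none of the 3.

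Of the 16 probes, 8 probes of 5 genes (AREG, HBEGF, TGFA, BTC and NRG1) were well above background on all 4 arrays in at least one RNA and were tested in both experiments. EGF, EREG, NRG2, NRG4, the other BTC probe and the fourth NRG1 probe were too dim for the test. At an adjusted p under 0.05, 1 of the 8 tested probes (HBEGF) was called higher in ErbB2-KD, against 2.30% of all 23869 probes tested (0.842% were higher). In MUC4-KD, 2 of the 8 (AREG and BTC) were called lower, against 29.1% of 25047 (13.2% were lower). With the sign of MUC4-KD turned both would be higher, against the same 13.2% of all probes, which would turn with them. At a 2-fold change and an unadjusted p under 0.01, AREG was the 1 probe called in ErbB2-KD (all probes, 2.78%), and AREG and BTC the 2 called in MUC4-KD (all probes, 8.37%). The median log2 ratio of the tested ligand probes was 0.14 in ErbB2-KD and -0.43 in MUC4-KD, beside -0.012 and -0.0017 over all probes tested.

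**Figure D1:**
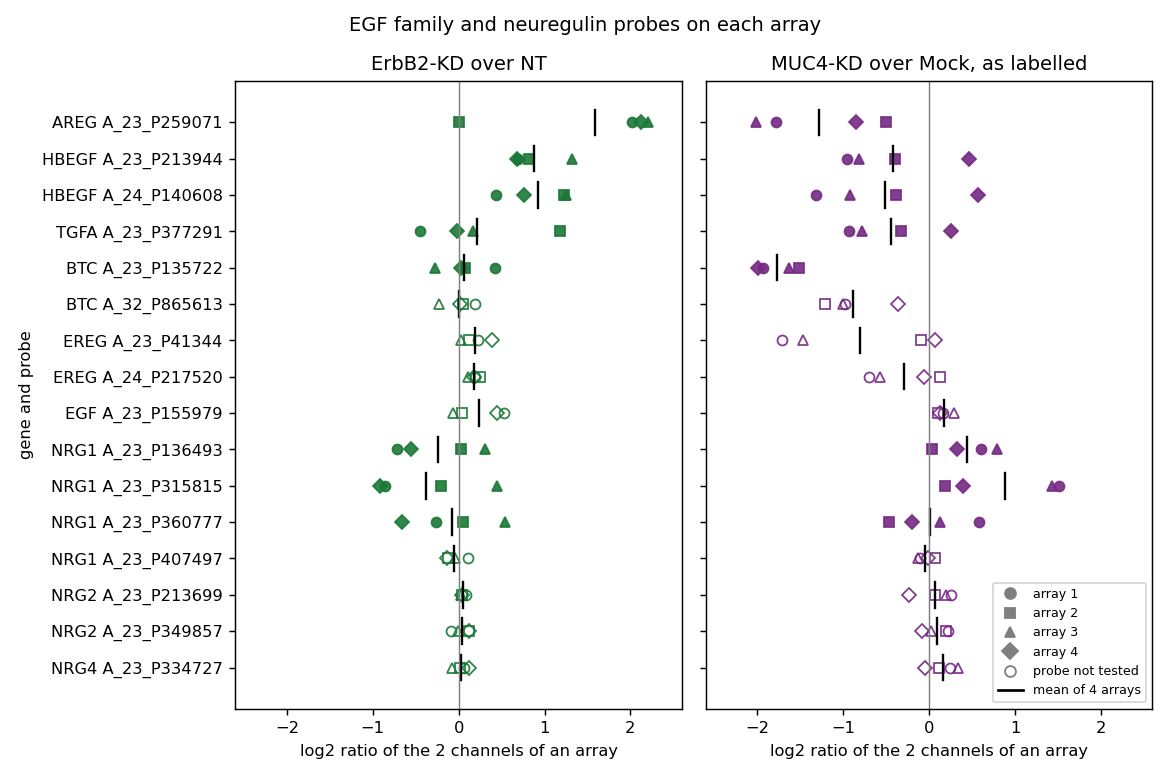
Log2 ratio of knockdown over control, as labelled, on each array for all 16 ligand probes. Symbols are arrays, open symbols are probes too dim to be tested and bars are means of 4 arrays. AREG stood near 2 on 3 ErbB2-KD arrays and at 0.0008 on the fourth, and BTC (A_23_P135722) was between -1.99 and -1.52 on the MUC4-KD arrays.

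AREG, an EGFR ligand that is also an early target of EGFR signalling, had the widest range of the tested ligands, 4.22 log2 units over the 8 arrays. Its log2 ratios of ErbB2-KD over NT were 2.02, 0.0008, 2.20 and 2.12 on arrays 1 to 4. Thus 3 clones were about 4-fold higher than the NT pool and clone 2 was level with it. The mean of 1.59 ± 1.06 (SD, n = 4), 3.00-fold, had an unadjusted p of 0.00525 and an adjusted p of 0.0995 (95% interval 0.67 to 2.51). Without array 2 the mean was 2.11 and the adjusted p 0.00263. The log2 level of AREG was 13.8, 11.7, 14.1 and 13.9 in the ErbB2-KD clones and between 11.7 and 11.8 in the NT pool on all 4 arrays. The difference between arrays thus lay in the channel of the clones and not in that of the pool. Array 2 was also the only ErbB2-KD array on slide 2 and the brightest of the 4 in both dyes. Each clone was on 1 array, so clone, slide and array cannot be told apart where array 2 differs, for AREG or any other gene. RNA was drawn from all cells of a clone, so a change in the share of expressing cells and one in RNA per cell cannot be told apart. In MUC4-KD over Mock as labelled, the AREG ratios were -1.78, -0.50, -2.02 and -0.85, lower on 4 of 4 arrays. The mean of -1.29 ± 0.73 (SD, n = 4), 2.44-fold lower, had an adjusted p of 0.020. Here the levels of RNA labelled MUC4-KD were between 9.86 and 10.2, whereas those of RNA labelled Mock were 11.96 and 11.95 on arrays 1 and 3 and 10.7 on both arrays 2 and 4. Without array 1 the AREG call was lost (mean -1.12, adjusted p = 0.0716), likewise without array 3 (mean -1.04, adjusted p = 0.0863). With arrays 1 and 3 averaged it was also lost (adjusted p = 0.0807).

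HBEGF, the heparin-binding ligand that is also the diphtheria toxin receptor, was higher in ErbB2-KD on 4 of 4 arrays on both of its probes. On A_23_P213944 the log2 ratios were 0.69, 0.82, 1.32 and 0.68, with a mean of 0.88 ± 0.30 (SD, n = 4), 1.84-fold, and an adjusted p of 0.0464. On A_24_P140608 they were 0.43, 1.23, 1.25 and 0.76, with a mean of 0.92 ± 0.40 (SD, n = 4) and an adjusted p of 0.0591. Arrays 3 and 2 were the highest on both probes. The call on A_23_P213944 was close to the threshold and was lost without any single one of the 4 arrays (adjusted p 0.056 to 0.179), and under 9 of 11 other settings. In MUC4-KD the ratios of A_24_P140608 were -1.31, -0.39, -0.92 and 0.57 and those of A_23_P213944 -0.96, -0.40, -0.82 and 0.47. Array 4 stood on the other side of 0 on both probes, and neither mean passed the test (-0.51, adjusted p = 0.255, and -0.43, adjusted p = 0.248). Without array 4 the means were -0.88 and -0.72 and both passed (adjusted p = 0.0203 and 0.0158). On A_24_P140608 the log2 level was 9.72, 10.8, 10.6 and 9.92 in ErbB2-KD and 9.29, 9.54, 9.32 and 9.15 in NT. It was 10.503, 10.46, 11.03 and 10.85 in the RNA labelled MUC4-KD and 11.82, 10.85, 11.96 and 10.28 in the RNA labelled Mock.

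TGFA, a classical EGFR ligand, did not pass the test in either experiment. Its ErbB2-KD ratios were -0.45, 1.18, 0.16 and -0.023, with a mean of 0.22 ± 0.69 (SD, n = 4, 95% interval -0.42 to 0.85, adjusted p = 0.72). Array 2, on which AREG was level with the control, held the highest TGFA ratio. Without it the mean was -0.10. In MUC4-KD the ratios were -0.93, -0.32, -0.78 and 0.26, with a mean of -0.44 ± 0.53 (SD, n = 4, 95% interval -0.97 to 0.083, adjusted p = 0.174). As for HBEGF, array 4 was the one above 0, and without it the mean was -0.68 (adjusted p = 0.0215). With normexp fitted on all spots the TGFA ratio of array 4 was 0.043.

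BTC had the smallest spread between arrays of the 3 members called, each in the experiment that called it. On A_23_P135722 the log2 ratios of MUC4-KD over Mock as labelled were -1.94, -1.52, -1.64 and -1.99, with a mean of -1.77 ± 0.23 (SD, n = 4), 3.42-fold lower, and an adjusted p of 0.00124. The call held without each array in turn (adjusted p 0.00137 to 0.019) and under all 13 other settings tried, with means between -2.49 and -1.38. The second BTC probe (A_32_P865613) was too dim for the test, with ratios of -0.985, -1.21, -0.9996 and -0.36, also lower on 4 of 4 arrays. In ErbB2-KD the ratios of A_23_P135722 were 0.42, 0.0745, -0.28 and 0.027, on both sides of 0, with a mean of 0.062 ± 0.29 (SD, n = 4, 95% interval -0.30 to 0.42, adjusted p = 0.872). The mean log2 level was 7.24 ± 0.10 in the RNA labelled MUC4-KD, 9.01 ± 0.24 in that labelled Mock, 7.24 ± 0.34 in ErbB2-KD and 7.18 ± 0.19 in NT (SD, n = 4 each). The RNA labelled Mock thus held the high level, and the other 3 RNAs overlapped.

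**Figure D2:**
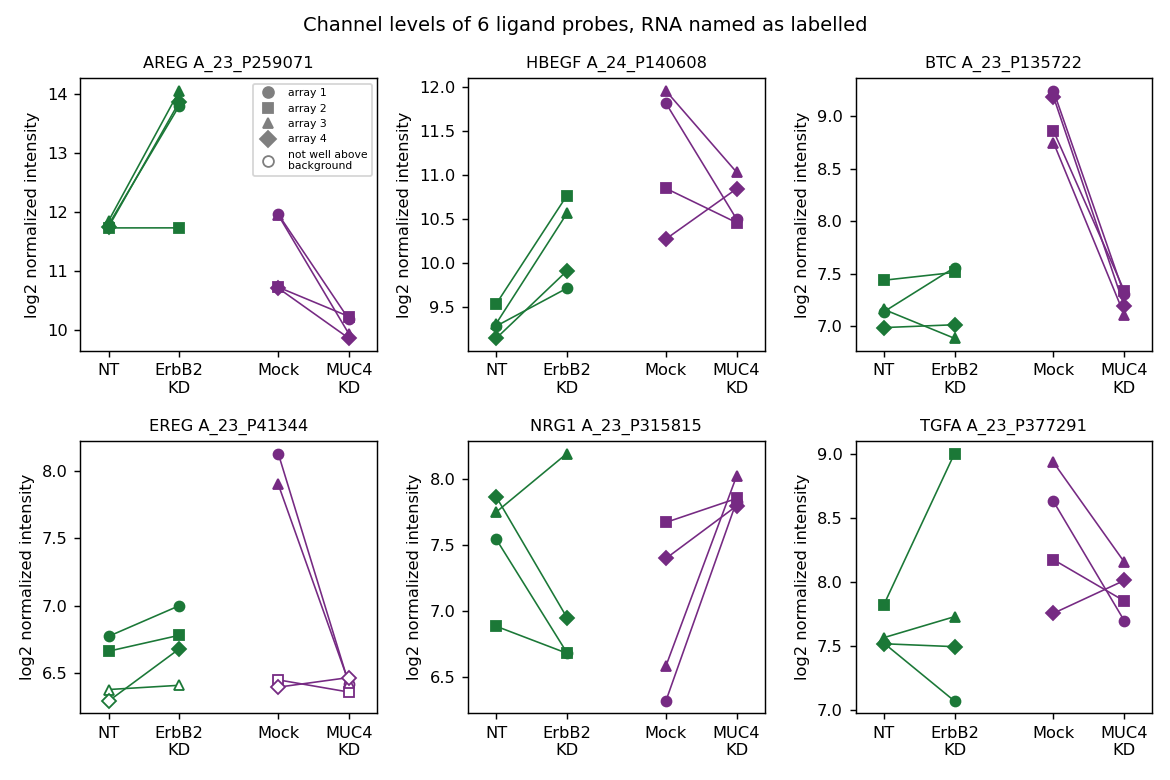
Log2 normalized intensity in both channels of each array for 6 ligand probes, with a line joining the RNAs of an array and open symbols where a spot was not well above background. The vertical scale differs between panels. AREG was level across the NT pool and high in 3 of 4 ErbB2-KD clones, and the BTC level of the Mock-labelled channel was high on 4 of 4 arrays.

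EREG was near background in most RNAs. Its brighter probe (A_23_P41344) was detected over background on MUC4-KD arrays 1 and 3 in the channel labelled Mock, and on no array in that labelled MUC4-KD, with log2 ratios of -1.71, -0.091, -1.47 and 0.072. On arrays 1 and 3 the level in the RNA labelled Mock was 8.13 and 7.90, and on arrays 2 and 4 it was 6.45 and 6.39. No fold is given, since on arrays 2 and 4 neither RNA was above background, and EREG was not tested. The second EREG probe had ratios of -0.69, 0.13, -0.57 and -0.055, with the same split of the arrays, which AREG also had. In ErbB2-KD the EREG ratios of A_23_P41344 were 0.23, 0.12, 0.032 and 0.39. EGF, the founding member, was detected over background on 2 arrays in the ErbB2-KD channel, on 3 in the channel labelled MUC4-KD and on none in either control. Its ratios were 0.52, 0.045, -0.067 and 0.44 in ErbB2-KD and 0.16, 0.11, 0.29 and 0.13 in MUC4-KD, and it was not tested.

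NRG1, the neuregulin that binds ERBB3 and ERBB4, has 4 probes, each annotated to a different transcript variant, which were read apart. Whether a probe detects only that variant was not tested. On A_23_P315815 the log2 ratios of MUC4-KD over Mock as labelled were 1.51, 0.18, 1.43 and 0.40, higher on 4 of 4 arrays, with a mean of 0.88 ± 0.69 (SD, n = 4, 95% interval 0.23 to 1.53) and an adjusted p of 0.0535. Arrays 1 and 3 were again apart from arrays 2 and 4. The levels of RNA labelled MUC4-KD lay between 7.80 and 8.02 and those of RNA labelled Mock were 6.32, 7.67, 6.59 and 7.40. The probe passed with the log ratio of the scanner software (mean 1.78, adjusted p = 0.0395). On A_23_P136493 the ratios were 0.61, 0.037, 0.78 and 0.32 (mean 0.44, adjusted p = 0.0839), and on A_23_P360777 they were 0.58, -0.47, 0.13 and -0.20 (mean 0.0093, adjusted p = 0.976), and the probes were not tested against each other. In ErbB2-KD the ratios of A_23_P315815 were -0.86, -0.20, 0.44 and -0.91 (mean -0.38, adjusted p = 0.462). Array 3 was the highest on the 3 tested NRG1 probes. The fourth NRG1 probe (A_23_P407497) had ratios between -0.14 and 0.10 over the 8 arrays. NRG2 was detected on 2 arrays in the ErbB2-KD channel with A_23_P349857, and in no other RNA with either probe. NRG4 was detected on 1 array in the NT channel and on 3 in that labelled MUC4-KD, with ratios between -0.075 and 0.33 over the 8 arrays.

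Whether the ligands answered differently to the 2 knockdowns was tested over all 8 arrays as the MUC4-KD ratio minus the ErbB2-KD ratio. Of the 8 tested probes, 4 were called, all lower in MUC4-KD, against 16.4% of all 25835 probes and 6.31% lower. AREG differed by -2.87 (95% interval -4.06 to -1.69, adjusted p = 0.00768), BTC by -1.83 (-2.28 to -1.39, adjusted p = 0.000800), and HBEGF by -1.43 on A_24_P140608 (adjusted p = 0.0337) and -1.30 on A_23_P213944 (adjusted p = 0.0223). The groups of 4 arrays did not overlap for AREG, BTC and HBEGF A_23_P213944, as for 23.7% of all probes. Within the 3 slides, AREG differed by -2.61, -0.85 and -4.02, BTC by -1.59, -2.07 and -1.81, and HBEGF A_24_P140608 by -1.23, -0.66 and -1.88, in the same direction on each. NRG1 A_23_P315815 differed by 1.26 (0.37 to 2.15, adjusted p = 0.0577) and TGFA by -0.66 (-1.50 to 0.17, adjusted p = 0.261). These differences depend on the labels: with the sign of MUC4-KD turned, BTC differed by 1.71 (adjusted p = 0.000693), whereas AREG differed by -0.30 (adjusted p = 0.719) and HBEGF A_24_P140608 by -0.40 (adjusted p = 0.483). With the replicate number as a block, AREG and BTC kept their calls and HBEGF did not (A_24_P140608, adjusted p = 0.0515). The vector, the selection and the control pool differed between the experiments and cannot be told apart from the targeted gene in this comparison.

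**Figure D3:**
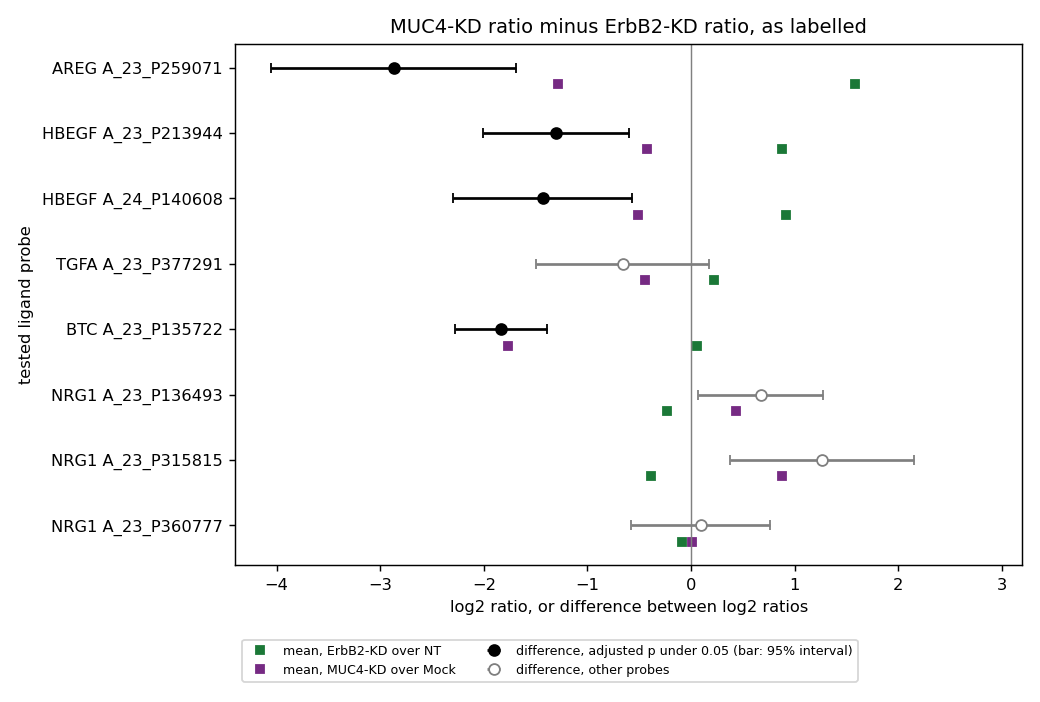
Difference between the log2 ratios of the experiments, MUC4-KD minus ErbB2-KD as labelled, for the 8 tested ligand probes, with 95% intervals. Squares are the mean ratios of each experiment. The differences of AREG (-2.87), BTC (-1.83) and both HBEGF probes (-1.43 and -1.30) passed an adjusted p of 0.05.

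Along chromosome 4, EPGN was measured beside its member neighbours. It was detected over background on 4 arrays in the channel labelled Mock and on none in that labelled MUC4-KD, with log2 ratios of -0.61, -0.77, -0.63 and -0.64 and an adjusted p of 0.0081. This makes it at least 1.54-fold lower, since the dim side gives only a bound. In ErbB2-KD its ratios were 0.39, -0.040, 0.62 and 0.71, and it was not tested. Array 2 was the lowest, as for AREG. The EPGN call in MUC4-KD was lost without array 3 (adjusted p = 0.0559). The next gene beyond BTC, PARM1, looked up after the ligand values were known, was also lower in MUC4-KD on the 1 of its 3 probes that was tested (ratios -0.51, -1.18, -0.66 and -1.22, adjusted p = 0.0124).

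**Figure D4:**
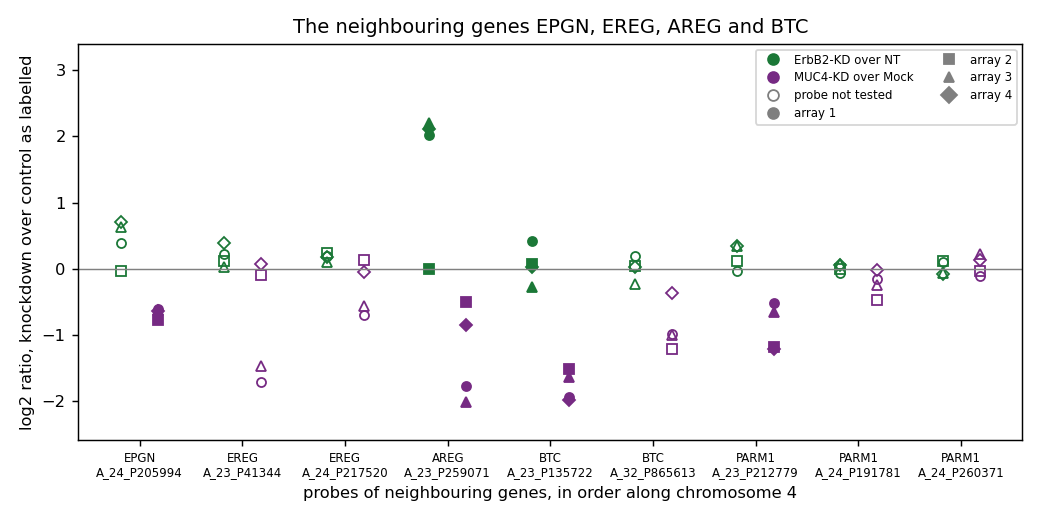
Log2 ratio on each array for the probes of EPGN, EREG, AREG, BTC and PARM1, neighbouring genes in order along chromosome 4. Open symbols are probes that were not tested. EPGN, AREG and BTC (A_23_P135722) were below 0 on 4 of 4 MUC4-KD arrays, and EREG A_23_P41344 was below -1.4 on arrays 1 and 3 and near 0 on arrays 2 and 4.

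The receptors of these ligands were read on their brightest probes. EGFR was higher in MUC4-KD as labelled, with log2 ratios of 1.48, 1.76, 1.17 and 1.68 (mean 1.52, adjusted p = 0.00196). In ErbB2-KD its ratios were -1.04, -2.80, -0.45 and -0.28, lower on 4 of 4 arrays (mean -1.14, adjusted p = 0.21). The ErbB2-KD clone with the lowest EGFR, on array 2, was the one with AREG at the level of the pool. ERBB3, the neuregulin receptor, was lower in MUC4-KD (-0.89, -0.95, -0.64 and -0.35, adjusted p = 0.0157). The ERBB3 call was lost without array 1, 2 or 3 (adjusted p = 0.079, 0.0648 and 0.0772). ERBB3 had a mean of -0.11 in ErbB2-KD (adjusted p = 0.735). ERBB4 was not well above background in enough arrays to be tested.

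Among 18 genes of ligand shedding and trafficking, 9 of the 17 tested passed in MUC4-KD, 6 higher and 3 lower as labelled, where 29.1% of all probes did. In ErbB2-KD 1 of the 16 tested passed, where 2.30% of all probes did. ADAM19, a metalloprotease, was higher in both as labelled (mean 1.24, adjusted p = 0.00198 in MUC4-KD, and 0.83, adjusted p = 0.0489 in ErbB2-KD), and with the sign of MUC4-KD turned the experiments would oppose each other. The others higher in MUC4-KD were ADAM9 (1.05), RHBDL2 (1.14), RHBDF2 (0.55), CD9 (0.97) and TIMP3 (1.06), a metalloprotease inhibitor. Those lower were ADAM8 (-1.35), BACE1 (-0.97) and FRMD8 (-0.48). ADAM17, the main releasing protease of AREG, HBEGF and TGFA, had means of -0.36 in ErbB2-KD (adjusted p = 0.336) and -0.55 in MUC4-KD (adjusted p = 0.109). The median of the list was 0.15 in either experiment. The ADAM19 call in ErbB2-KD was lost without any 1 of the 4 arrays (adjusted p 0.0585 to 0.229). In MUC4-KD, the calls of ADAM8 and TIMP3 held under all alternatives and without each array. That of ADAM19 held without each array and under 12 of 13 other settings. When each of the 4 arrays was left out in turn, the calls of ADAM9, BACE1 and CD9 held 3 times. That of RHBDL2 held 2 times, and those of RHBDF2 and FRMD8 only 1 time.

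Among 16 early and feedback transcripts of the receptor pathway, 2 of the 16 tested passed in MUC4-KD on their brightest probe (all probes, 29.1%). PHLDA1 and CCND1 did not pass on it, though 2 of the 4 PHLDA1 probes and 1 of the 3 CCND1 probes passed. In ErbB2-KD (all probes, 2.30%), 0 of the 15 tested passed with limma and 0 with a plain test of each probe against 0. The unadjusted p was under 0.05 for 7 with limma and for 5 with the plain test. The share of all probes at that unadjusted threshold was not counted. The list medians were 0.41 in ErbB2-KD and 0.094 in MUC4-KD. DUSP5, an ERK phosphatase, was lower in MUC4-KD (-1.61, -0.58, -1.81 and -0.60, adjusted p = 0.0212), with arrays 1 and 3 apart from 2 and 4 as for AREG, and its call was lost without array 1 (adjusted p = 0.0772) or array 3 (adjusted p = 0.0914). LRIG1, an inhibitor of ErbB receptors, was higher (mean 2.92, adjusted p = 0.000838). FOSL1, an AP-1 subunit, had the highest mean of the list in ErbB2-KD (0.59, 1.55, 2.48 and 1.76, adjusted p = 0.052). EGR1, an immediate early gene, had ratios of -1.09, 1.51, -1.49 and -1.56 in ErbB2-KD, with array 2 apart from the others.

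Among 15 other growth factors, 2 of the 11 tested passed in ErbB2-KD (all probes, 2.30%) and 4 of the 12 tested in MUC4-KD (all probes, 29.1%), on their brightest probes. VEGFA did not pass on it in MUC4-KD, though 2 of its 4 probes passed. The means of its other tested probes ran from -0.56 to 1.78. PTN (pleiotrophin) was higher in ErbB2-KD (2.50, 1.66, 2.90 and 2.45, adjusted p = 0.00763), a call lost without array 4 (adjusted p = 0.0526). PDGFB was lower in ErbB2-KD (mean -1.10, adjusted p = 0.0368; lost without array 1, 3 or 4, adjusted p = 0.119, 0.182 and 0.0879) and higher in MUC4-KD as labelled (mean 1.22, adjusted p = 0.00617). GDF15 (mean -3.07, adjusted p = 0.000746), MDK (midkine, -1.67, adjusted p = 0.00531) and FGFBP1 (-1.37, adjusted p = 0.00819) were lower in MUC4-KD. The list medians were -0.16 in ErbB2-KD and -0.012 in MUC4-KD.

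**Figure D5:**
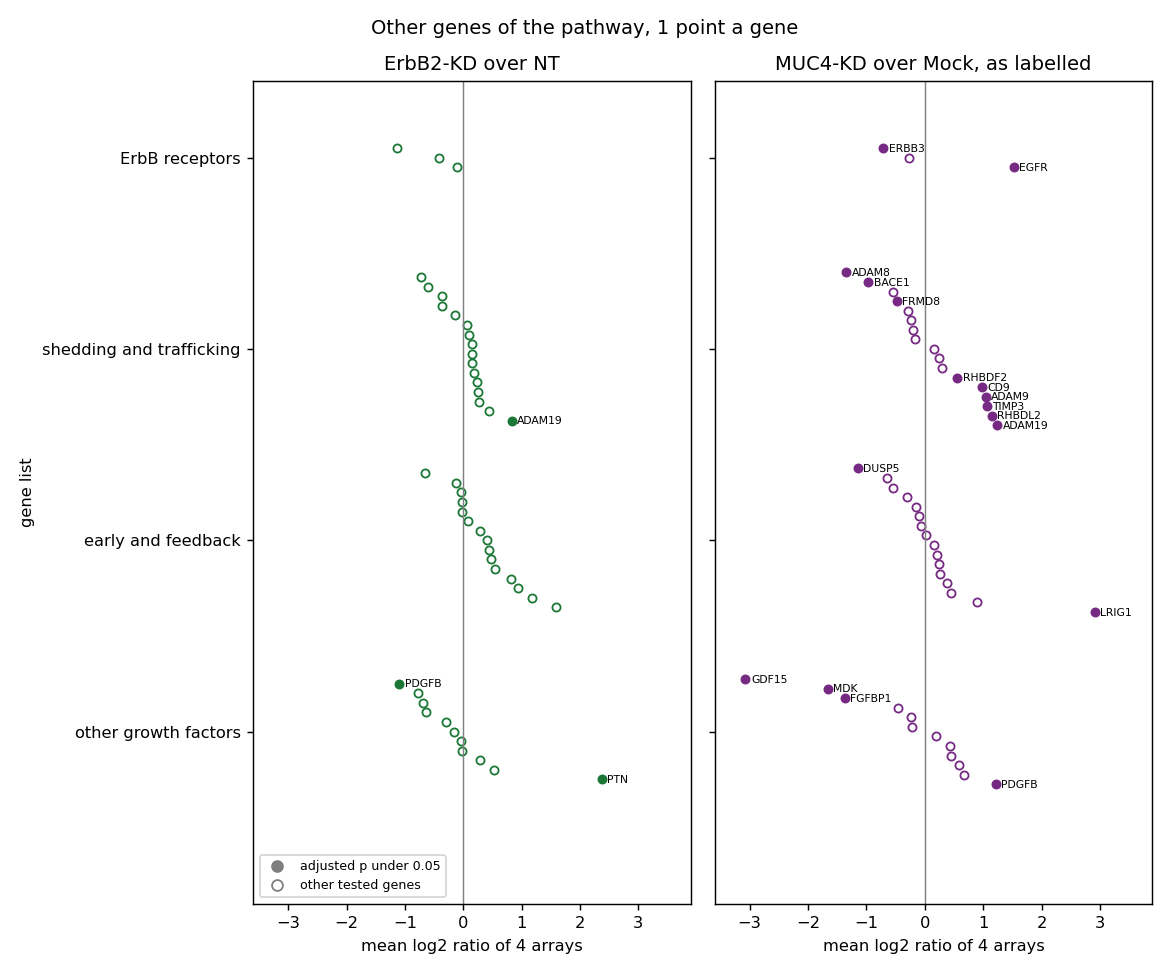
Mean log2 ratio of each tested gene of 4 lists in each experiment, on its brightest probe, with filled symbols for an adjusted p under 0.05. In MUC4-KD, 9 of 17 shedding and trafficking genes were called (all probes, 29.1%), and in ErbB2-KD, 1 of 16 (all probes, 2.30%).

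The genes most like AREG, HBEGF and NRG1, the 3 ligands with the widest range, were found among 22974 probes by Pearson's r over the 8 arrays as labelled, as a description. RNASET2 (r = 0.995), ADAMTSL4 (0.994) and LGALS3BP (0.984) were nearest to AREG. TBC1D5 (0.978), KDSR (0.978) and PPTC7 (0.9751) were nearest to HBEGF, and THBD (0.989), BAMBI (0.985) and BTBD3 (0.977) to NRG1. Their own means could differ from those of the ligand, since r ignores size: LGALS3BP had a mean of -0.36 in ErbB2-KD where AREG had 1.59. With the sign of the MUC4-KD ratios turned, the nearest were MCEE (0.982), YBX2 (0.977) and GPC4 (0.967) to AREG, CHD7 (0.977), VIRMA (0.956) and PABPC3 (0.954) to HBEGF, and LAMA1 (0.976), SMIM3 (0.975) and IGF1R (0.949) to NRG1, so that 0 of the 3 genes were shared for each ligand. Of the genes nearest as labelled, ADAMTSL4 then had r = 0.958 with AREG, whereas RNASET2 had 0.667 and LGALS3BP 0.049. Among the ligands themselves, r over the 8 arrays as labelled was 0.85 for AREG and BTC, 0.84 for HBEGF and TGFA, and -0.80 for NRG1 with either AREG or BTC. With the sign turned these became -0.18, 0.68, -0.36 and -0.50, so that of these pairs AREG and BTC changed sign. The 4 arrays of an experiment share a control pool, and the points form 2 groups by experiment.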

How the data were processed

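For each 2-colour array the authors deposited scanner output from Feature Extraction 10.5.1.1 that gives the median intensity of each spot and of its surroundings in both dyes, quality flags and a log10 ratio of Cy5 over Cy3. Their table of log10 ratios, deposited beside it, matches these within 5.0e-06 after turning to knockdown over control as labelled. Groups and dyes were taken from the labels.

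Analysis used R 4.3.3 and limma 3.58.1. Normexp background correction (offset 50) was followed by loess within each array. Single spots with a flagged, very high local background, down to a net intensity of -73107, pulled the fitted background mean of MUC4-KD array 4 to -550 in Cy3, so the normexp parameters were fitted on spots with no outlier flag. The fit on all spots is an alternative chosen after seeing the data. Spots flagged as outliers were left out and spots of a probe averaged. Channel levels are log2 intensities after loess and Aquantile, and are not compared between probes. To be tested, a probe had to be well above background on 4 of 4 arrays in at least one of its RNAs. Mean log2 ratios were tested against 0 per experiment, and the difference between experiments over 8 arrays, with lmFit, eBayes and Benjamini-Hochberg adjustment over all probes tested. Each pool counts as 1 control sample, so no test holds the spread between control clones, and the number of arrays limits the precision. With 4 arrays, the smallest p an exact sign-flip test allows is 0.125.

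Of 41000 probes, 25398 had a current symbol through their accession in the RefSeq table of GRCh38.p14. The members, the gene lists and the tests were chosen with earlier results of these data known. All members were named, and of each list the genes past the adjusted threshold. The receptors, ADAM17, FOSL1, EGR1, PHLDA1, CCND1, VEGFA and PARM1 were also named, after their values were seen. For each gene of a list the brightest tested probe was used. Same-numbered arrays of the experiments did not deviate together (r between -0.20 and -0.080), and the labels give the numbers no shared origin. Alternatives were other offsets, ratios, centring, filters, blocks, moderation and tests, averaged arrays, a turned sign and each array left out. The tests were tried on simulated data first.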

Additional observations from a re-analysis of the deposited data

Results flagged for a closer look

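AREG in ErbB2-KD had 1 array far from the others: array 2 had a log2 ratio of 0.0008, against 2.02 to 2.20 on arrays 1, 3 and 4. This was the 1 such case among 16 sets of 4 ratios of the tested ligand probes, and chance alone gives about 1 in 20. Its part in the result was measured: without array 2 the mean of AREG was 2.11 with an adjusted p of 0.00263.

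The log2 ratio differed between the knockdowns, as MUC4-KD minus ErbB2-KD, by -2.87 for AREG, by -1.43 and -1.30 for the HBEGF probes A_24_P140608 and A_23_P213944, and by -1.83 for BTC A_23_P135722, each past an adjusted p of 0.05 in limma over 8 arrays.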

How the results depend on the processing

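With limma at an adjusted p under 0.05, 1 ligand probe was called in ErbB2-KD. The count was 0 with the scanner software's log ratio, median centring, no filter on dim probes (4 at an unadjusted p under 0.05), the filter in both channels, a dye term, an intensity trend with robust moderation and normexp fitted on all spots (3 unadjusted in each of the others), and 0 with a plain Student test of each probe (2 unadjusted). It was 2 with the slide as a block and 0 to 1 without 1 array. The share of all probes at the unadjusted threshold was not counted. Of all 23869 probes, 548 were called, 170 with median centring and 1260 with the slide as a block. With the intensity trend or the Student test 0 were called, and without 1 array 59 to 921. In MUC4-KD the ligand count of 2 became 1 with median centring, a plain Student test of each probe and arrays 1 and 3 averaged. It was 1 to 6 without 1 array, and the 6 came without array 4. Of all 25047 probes, 7277 were called, and 9355 without array 4. With median centring 1171 were called, with the Student test 3503 and with arrays 1 and 3 averaged 3094. For the difference the ligand count of 4 became 2 with median centring, with arrays 1 with 3 and 2 with 4 averaged, with arrays 1 and 3 averaged and with the replicate block. It was 1 with the sign of MUC4-KD turned, and 2 to 4 without 1 array. Of all 25835 probes, 4248 were called, 1100 with median centring and 5937 with the sign turned. With both pairs averaged 1775 were called, with arrays 1 and 3 averaged 2515 and with the replicate block 2344. The averaging of arrays 1 and 3 alone and the normexp fit on all spots were chosen after seeing the data.

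In ErbB2-KD, AREG passed in 1 fit over 8 arrays (1.59), and HBEGF A_24_P140608 with the slide as a block (0.94) or as the mean of its probes (0.90). In MUC4-KD, AREG did not pass with median centring (-1.46), a plain Student test of each probe (-1.29) or arrays 1 and 3 averaged (-1.08), and NRG1 A_23_P315815 passed with an offset of 10 (1.29), the scanner software's log ratio (1.78) and 1 fit over 8 arrays (0.88). For the difference, HBEGF A_24_P140608 did not pass with median centring (-1.47), no filter (-1.43), either averaging (-1.43 with both pairs, -1.23 with arrays 1 and 3), the replicate block (-1.43) or normexp on all spots (-1.40), and NRG1 A_23_P315815 passed with an offset of 10 (1.84) and the scanner software's log ratio (2.55). With the sign of MUC4-KD turned, AREG (-0.30) and HBEGF A_24_P140608 (-0.40) no longer differed past the threshold, and BTC (1.71), TGFA (0.23), NRG1 A_23_P315815 (-0.50) and NRG1 A_23_P136493 (-0.20) changed sign. The cause of these changes was not tested.

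Without 1 array, the mean ranged in ErbB2-KD from 1.38 to 2.11 for AREG, -0.10 to 0.44 for TGFA and -0.058 to 0.17 for BTC, and in MUC4-KD from -1.55 to -1.04 for AREG, -0.88 to -0.25 for HBEGF A_24_P140608, -0.68 to -0.28 for TGFA and 0.67 to 1.11 for NRG1 A_23_P315815. The difference ranged from -1.79 to -1.17 for HBEGF A_24_P140608 and from 1.05 to 1.54 for NRG1 A_23_P315815. NRG1 A_23_P360777, near 0 throughout, changed sign in ErbB2-KD with normexp on all spots (0.0046) and without 1 array (range -0.29 to 0.11), in MUC4-KD with the slide as a block (-0.0020), arrays 1 and 3 averaged (-0.11) and without 1 array (-0.18 to 0.17), and in the difference with arrays 1 and 3 averaged (-0.023) and without 1 array (-0.099 to 0.30).

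The replicate numbers do not pair the arrays, and the replicate block changed no other ligand call of the difference than those of HBEGF. Over all probes, the count called in ErbB2-KD was 548 and lay between 0 and 1345 over the other settings, and in MUC4-KD it was 7277 and lay between 1171 and 8721; without 1 array the counts were 59 to 921 and 2416 to 9355. For the difference it was 4248, and 1100 to 5937 over the other settings. Of the 3 list genes called in ErbB2-KD, 0 kept their call under all alternatives and without each array, and of the 20 probes called in MUC4-KD, targeted gene included, 5 did. Probes that were not well above background leave EGF, EREG, NRG2 and NRG4 without a test. The sign of MUC4-KD was also turned for the genes most like each ligand, an alternative chosen after seeing the data.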
